A study of Homo sapiens with 8 samples.

Results

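Mitotic kinesins were examined as 10 genes chosen by name, KIF11, KIF15, KIF2C, KIF18A, KIF4A, KIF22, KIF14, KIF20A, KIF20B and KIF23, out of 18955 genes in the single-cell count table. All 10 passed the filter on low values, which 9288 genes passed in all: 5 CPM or more in 2 or more libraries, where CPM are the UMIs of a gene scaled to the total of its library. The cells were SUM159, a human line established from triple-negative breast cancer, and carried the lentiviral ClonTracer DNA barcode library. Each of 8 libraries held 1 population: the cells before treatment, or their descendants after up to 18 passages in DMSO vehicle, paclitaxel, palbociclib, JQ1 (a library called JQ1-A and another called JQ1-B), JQ1+paclitaxel or JQ1+palbociclib. Doses were 100 nM for JQ1, 0.6 nM for paclitaxel and 160 nM for palbociclib, alone and combined. BET bromodomain proteins are the targets of JQ1, the kinases CDK4 and CDK6 those of palbociclib, and microtubules that of paclitaxel, which stabilises them. DMSO, paclitaxel, JQ1-A and JQ1+paclitaxel came from 1 experiment. Palbociclib, JQ1-B and JQ1+palbociclib came from another, in which no vehicle library was analysed here. Replicate cultures were pooled before encapsulation, so a library is 1 sample and the cultures within it cannot be told apart.

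Kinesins are motor proteins that use ATP to move along microtubules or to take their ends apart. Those studied here act in cell division: they hold the spindle poles apart, move chromosomes, set microtubule length, and build the midzone and midbody through which the cell finally divides. Their mRNAs belong to the group of genes that dividing cells transcribe late in the cycle, in G2 and mitosis, and that resting cells keep low. The drugs bear on this biology from different sides, since paclitaxel acts on the microtubules on which these motors walk, palbociclib acts on entry into the cycle, and JQ1 acts on transcription.

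The libraries held 459 to 1024 cells and 10621159 to 24240835 unique molecular identifiers (UMIs, counted molecules), with DMSO the smallest and JQ1+palbociclib the largest. Mean UMIs per cell lay between 22305 and 24171. As a mesenchymal-like line should, every library held VIM (3279 to 4502 CPM) and CD44 (228 to 437 CPM), while the hormone receptor genes ESR1 and PGR and the blood marker PTPRC stayed at or below 0.471 CPM and the epithelial EPCAM at or below 0.565 CPM. Median mitochondrial shares per cell were 3.72 to 3.96% in pre-treatment, DMSO and paclitaxel and 4.69 to 7.18% in the other 5 libraries; the part of this in the results that follow was not tested. Across libraries, 13 cell barcode sequences occurred more than once, at most 2 of them in any pair of libraries.

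The 10 kinesins together gave 208 CPM before treatment, 234 in DMSO, 264 in paclitaxel, 159 in palbociclib, 164 in JQ1-A, 155 in JQ1-B, 171 in JQ1+paclitaxel and 151 in JQ1+palbociclib. Pre-treatment, DMSO and paclitaxel were therefore the high libraries, and palbociclib was as low as the libraries with JQ1. Counting error was small against this gap, with an exact Poisson 95% interval of 225 to 244 CPM in DMSO and 146 to 156 in JQ1+palbociclib. Intervals of this kind cover counting error only. In summed libraries, fewer cells with kinesin RNA and less kinesin RNA per cell cannot be told apart. UMIs were read from the 3′ ends of transcripts, and levels of different genes are not compared as amounts of RNA.

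**Figure D1:**
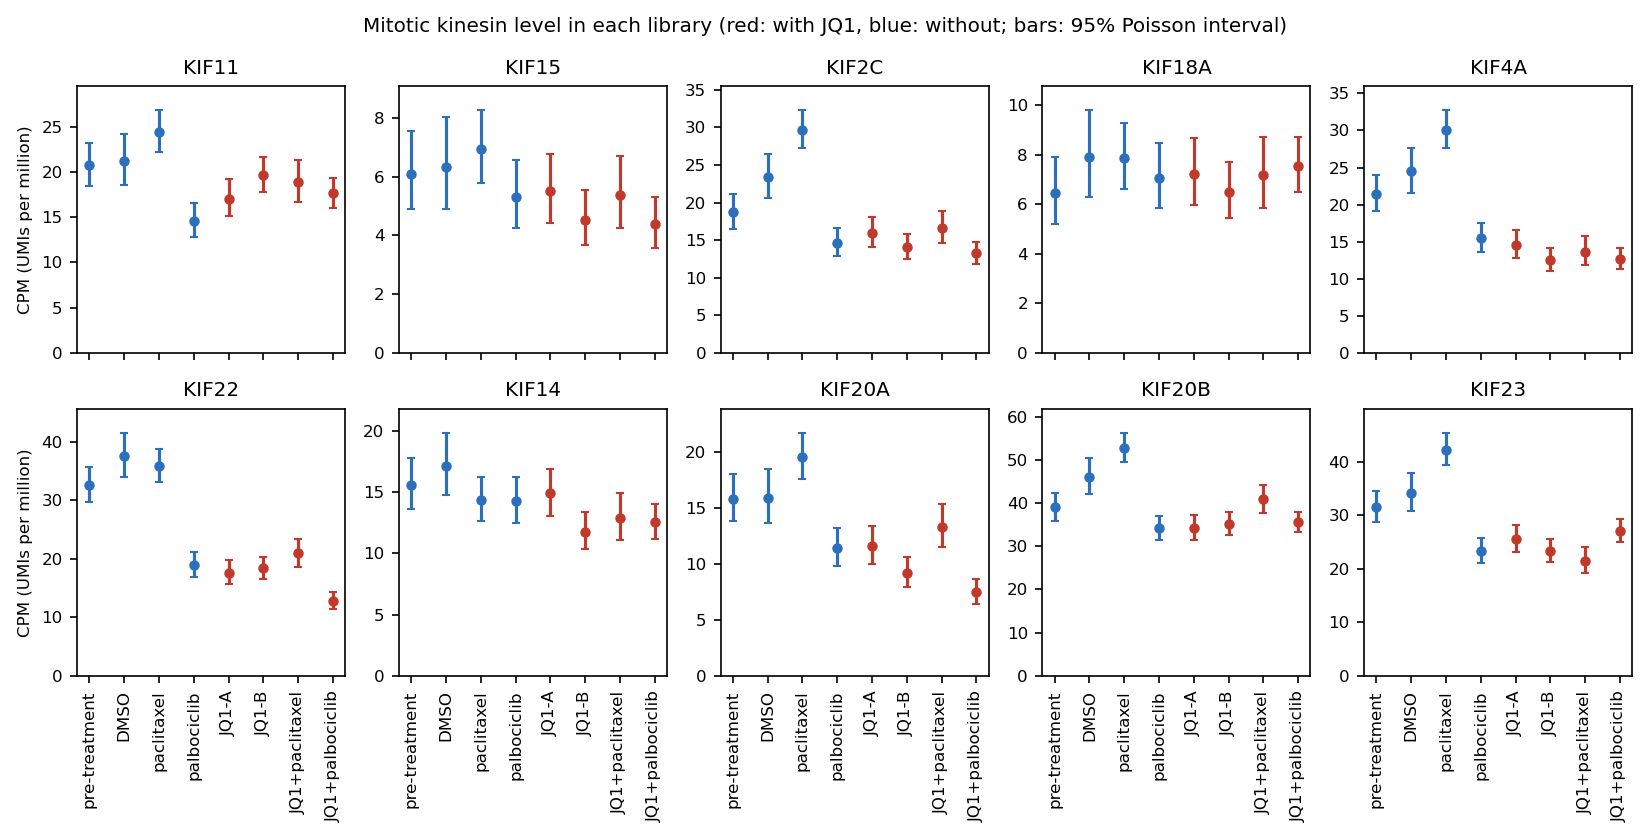
Level of each kinesin in the 8 libraries, in CPM on the vertical axis, with exact Poisson 95% intervals; red points are libraries with JQ1 and blue points are libraries without it. KIF4A is the gene whose 4 red points all lie below its 4 blue points, and for most other genes the palbociclib point sits among the red ones.

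For JQ1 exposure, 4 libraries were set against 4, in a model that also held palbociclib and paclitaxel as additive terms. KIF22, KIF4A and KIF20A were lower under JQ1, and no kinesin was higher. With edgeR (quasi-likelihood F test, p adjusted by Benjamini-Hochberg over all genes), 3 of 10 kinesins were called lower, against 19.7% of all tested genes lower, 17.8% higher and 37.6% in either direction. The members' median log2 fold change was -0.16, with 8 of 10 below 0, against a median of -0.0032 and 50.2% below 0 over all tested genes. Direction for the smaller values depended on scaling: with library totals in place of TMM factors, the median gene stood at -0.20, calls shifted from 1655 higher and 1833 lower to 865 higher and 2912 lower, and KIF11 and KIF18A changed sign. With the experiment as a further term, which leaves 2 residual degrees of freedom, no kinesin and 463 genes were called by edgeR. Within the JQ1+paclitaxel experiment alone, 4 libraries with 1 residual degree of freedom, KIF22 and KIF4A were called at -0.64 and -0.65 (edgeR adjusted p of 0.0282 and 0.029), and KIF20A was not, at -0.21 (edgeR adjusted p = 0.491). The 6 libraries that form 3 pairs of the same experiment and partner drug (JQ1-A with DMSO, JQ1+paclitaxel with paclitaxel, JQ1+palbociclib with palbociclib), fitted with 2 residual degrees of freedom after the data had been seen, likewise gave no kinesin and 361 genes called by edgeR, with KIF22 at -0.62 (adjusted p = 0.0694), KIF4A at -0.53 (0.116) and KIF20A at -0.35 (0.228). Libraries differ in partner drug and are not repeats of one condition, so the p-values measure the spread left between them after the 3 terms.

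KIF22, a chromokinesin that binds DNA and pushes chromosome arms away from the poles, had the largest change. Without JQ1, KIF22 stood at 32.6 CPM before treatment, 37.6 in DMSO, 35.9 in paclitaxel and 19.0 in palbociclib. With JQ1, KIF22 stood at 17.6 CPM in JQ1-A, 18.4 in JQ1-B, 20.9 in JQ1+paclitaxel and 12.7 in JQ1+palbociclib. Palbociclib was the only library without JQ1 in the range of those with it, and JQ1+palbociclib was the lowest of all 8. The mean was 17.4 ± 3.42 CPM with JQ1 and 31.3 ± 8.44 without (SD, n = 4 libraries each), and the log2 fold change was -0.62 ± 0.10 (SE, edgeR adjusted p = 0.00373). This call held when any single library was left out, with edgeR adjusted p between 0.00322 and 0.0237, and was lost when the experiment was added as a term, where the log2 fold change was again -0.62 and the edgeR adjusted p was 0.0677. Within an experiment and partner drug, single libraries gave the same order: the KIF22 level in JQ1-A was 0.469 of that in DMSO (95% counting interval 0.401 to 0.547), in JQ1+paclitaxel 0.583 of that in paclitaxel, and in JQ1+palbociclib 0.672 of that in palbociclib. On the log2 scale these are -1.09, -0.78 and -0.57 for KIF22, where the median gene, with 1 CPM added, stood at -0.24, -0.26 and -0.04.

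KIF4A is a second chromokinesin, which also limits microtubule growth at the anaphase midzone together with PRC1. Without JQ1, KIF4A was measured at 21.5 CPM before treatment, 24.5 in DMSO, 30.1 in paclitaxel and 15.5 in palbociclib. With JQ1, KIF4A was measured at 14.6 CPM in JQ1-A, 12.6 in JQ1-B, 13.7 in JQ1+paclitaxel and 12.7 in JQ1+palbociclib. KIF4A was the 1 kinesin of 10 whose libraries with and without JQ1 did not overlap; of all tested genes, 22.7% were lower without overlap. The log2 fold change was -0.54 ± 0.13 (SE, edgeR adjusted p = 0.0147). Without DMSO the adjusted p was 0.0504 and without JQ1-B it was 0.0578 by edgeR, so this call rests on those libraries. In the 3 pairs of the same experiment and partner drug, the KIF4A level with JQ1 was 0.596 of that in DMSO (95% counting interval 0.497 to 0.713), 0.454 of that in paclitaxel (0.384 to 0.536) and 0.822 of that in palbociclib (0.694 to 0.974). Reads of KIF4A and of its near-identical copy KIF4B may have been assigned between them, although KIF4B was nearly absent from the table.

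KIF20A, KIF20B, KIF23 and KIF14 act late, at the midzone and in cytokinesis, and differed in their values. KIF20A, which carries the chromosomal passenger complex with Aurora B to the midzone, stood at 15.8 CPM before treatment, 15.9 in DMSO, 19.5 in paclitaxel and 11.4 in palbociclib. With JQ1 it stood at 11.6 CPM in JQ1-A, 9.16 in JQ1-B, 13.3 in JQ1+paclitaxel and 7.51 in JQ1+palbociclib. The groups overlapped at the palbociclib library, and the log2 fold change was -0.40 ± 0.12 (SE, edgeR adjusted p = 0.0348). This was the least stable of the 3 calls: leaving out pre-treatment, DMSO, palbociclib, JQ1-B or JQ1+palbociclib raised the edgeR adjusted p to 0.0892, 0.0827, 0.0919, 0.119 and 0.0727, and DESeq2 gave an adjusted p of 0.0564. In the same 3 pairs KIF20A with JQ1 was 0.730 of its level in DMSO, 0.682 of that in paclitaxel and 0.658 of that in palbociclib.

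KIF23, the motor subunit of centralspindlin, was measured without JQ1 at 31.6 CPM before treatment, 34.3 in DMSO, 42.3 in paclitaxel and 23.4 in palbociclib. Its levels with JQ1 were 25.6 CPM in JQ1-A, 23.3 in JQ1-B, 21.5 in JQ1+paclitaxel and 27.1 in JQ1+palbociclib. Unlike KIF22 and KIF20A, KIF23 was not lowest in JQ1+palbociclib, where it stood above the other libraries with JQ1. Its log2 fold change for JQ1 was -0.21 ± 0.15 (SE, edgeR adjusted p = 0.303). KIF20B, a plus-end motor needed for cytokinesis, ranged from 34.2 CPM in palbociclib to 52.8 in paclitaxel without JQ1 and from 34.2 in JQ1-A to 40.9 in JQ1+paclitaxel with it, at a log2 fold change of -0.03 ± 0.10. KIF14, which binds PRC1 and the midbody kinase CIT, ranged from 14.3 to 17.1 CPM without JQ1 and from 11.8 to 14.9 with it, at -0.04 ± 0.12. Neither was called, with edgeR adjusted p of 0.842 for KIF20B and 0.827 for KIF14, and both signs changed when certain libraries were left out.

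KIF11 and KIF15 both work on the bipolar spindle, KIF11 as the tetramer that slides antiparallel microtubules apart and KIF15 as the motor that can maintain the spindle when KIF11 is blocked. KIF11 stood at 20.7 CPM before treatment, 21.2 in DMSO, 24.4 in paclitaxel and 14.6 in palbociclib, and at 17.1 in JQ1-A, 19.6 in JQ1-B, 18.9 in JQ1+paclitaxel and 17.6 in JQ1+palbociclib. Here palbociclib was lower than every library with JQ1. The log2 fold change for JQ1 was 0.07 ± 0.11 (SE, edgeR adjusted p = 0.611), and -0.12 with library totals in place of TMM. KIF15 was among the lowest in count, with 5.32 to 6.93 CPM without JQ1 and 4.37 to 5.50 with it, and a log2 fold change of -0.12 ± 0.15 (SE, edgeR adjusted p = 0.541).

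KIF2C and KIF18A act at microtubule ends. KIF2C, a depolymerase that corrects wrong attachments at centromeres, stood at 18.7 CPM before treatment, 23.3 in DMSO, 29.7 in paclitaxel and 14.7 in palbociclib without JQ1, and at 16.0 in JQ1-A, 14.0 in JQ1-B, 16.6 in JQ1+paclitaxel and 13.2 in JQ1+palbociclib with it. Paclitaxel was the highest library and the groups overlapped through palbociclib. The log2 fold change for JQ1 was -0.29 ± 0.13 (SE, edgeR adjusted p = 0.0996) and was called at -0.49 (adjusted p = 0.0254) with library totals in place of TMM. With JQ1, KIF2C was 0.685 of its level in DMSO, 0.560 of that in paclitaxel and 0.902 of that in palbociclib, where the 95% counting interval of 0.761 to 1.07 holds 1. KIF18A, which dampens chromosome movements at the metaphase plate, differed little among the 8 libraries, with 6.45 to 7.91 CPM without JQ1 and 6.50 to 7.55 with it. Its log2 fold change was 0.16 ± 0.14 (SE, edgeR adjusted p = 0.385), and -0.04 with library totals in place of TMM.

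**Figure D2:**
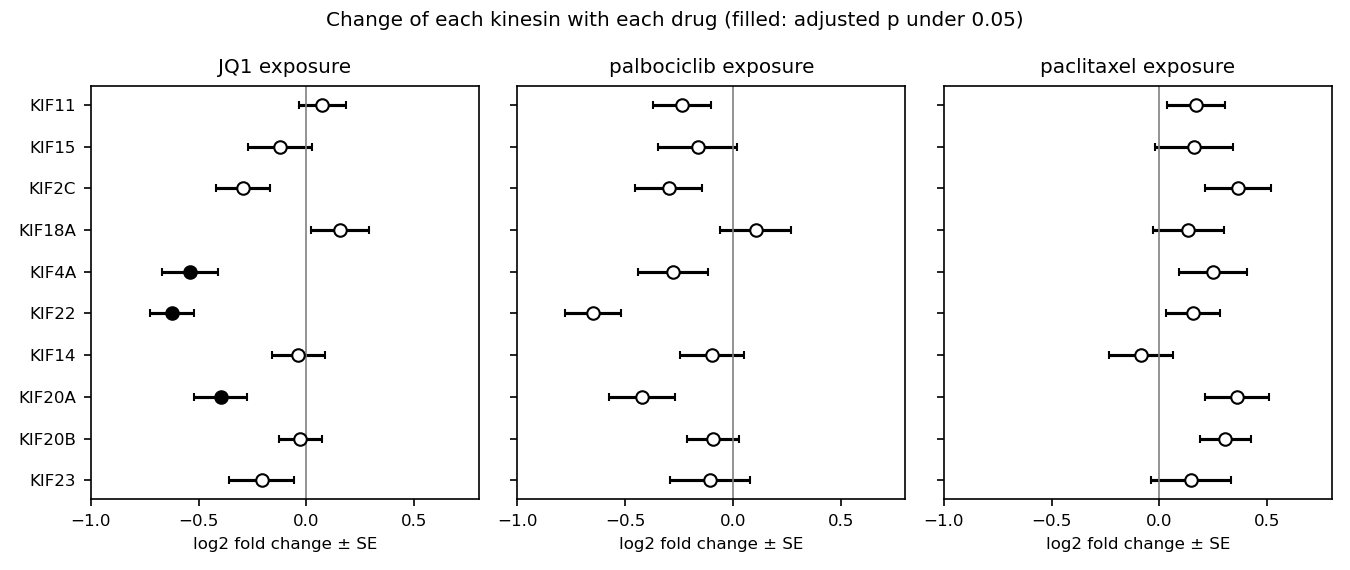
Log2 fold change of each kinesin with its standard error (horizontal axis) for exposure to JQ1, palbociclib and paclitaxel, from 1 additive model over 8 libraries; filled points have an adjusted p under 0.05. The filled points are KIF4A, KIF22 and KIF20A under JQ1, and KIF22 has a similar value under palbociclib, -0.65, that was not called.

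Cell cycle genes expressed in G2 and mitosis often carry a cell cycle homology region (letters TTTGAA or TTTAAA, bound by the MuvB core of the DREAM and MYB complexes) and CCAAT boxes (bound by NF-Y) just before their start. The promoters of the 3 kinesins called under JQ1, and of KIF11, which was not called and carries both motifs, are shown so that these letters can be seen. They are the 150 bases before each RefSeq start (GRCh38.p14 sequence table), located in GRCh37 by 1 exact match each and written 5′ to 3′ on the gene's strand, with the motif letters in capitals. On the opposite strand TTTGAA is read as TTCAAA and CCAAT as ATTGG, while TTTAAA is its own complement.
KIF22, chr16:29801922-29802071, plus strand: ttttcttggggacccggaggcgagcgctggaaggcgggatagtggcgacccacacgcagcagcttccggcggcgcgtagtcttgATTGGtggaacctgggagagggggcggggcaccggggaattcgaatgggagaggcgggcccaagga
KIF4A, chrX:69509804-69509953, plus strand: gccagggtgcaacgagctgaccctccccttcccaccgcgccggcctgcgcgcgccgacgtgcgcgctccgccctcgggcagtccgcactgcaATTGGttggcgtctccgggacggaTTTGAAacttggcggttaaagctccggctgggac
KIF20A, chr5:137514651-137514800, plus strand: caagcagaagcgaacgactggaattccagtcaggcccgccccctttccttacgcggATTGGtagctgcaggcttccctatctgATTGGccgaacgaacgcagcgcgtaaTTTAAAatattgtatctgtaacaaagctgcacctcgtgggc
KIF11, chr10:94352737-94352886, plus strand: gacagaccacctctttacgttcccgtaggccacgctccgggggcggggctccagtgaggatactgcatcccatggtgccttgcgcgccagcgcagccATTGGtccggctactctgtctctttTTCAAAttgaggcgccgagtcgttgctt
The windows of KIF20A and KIF11 and the last bases of that of KIF22 lie inside the GENCODE gene spans, which begin further upstream. These spans are protein-coding genes at chr16:29802048-29816706 for KIF22, chrX:69509954-69640736 for KIF4A, chr5:137514408-137523412 for KIF20A and chr10:94333862-94415152 for KIF11 (GRCh37).

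All 10 kinesins were matched in the promoter table, and 250 bases before the start were searched on both strands. TTTGAA or TTTAAA occurred in 7 of 10, KIF11, KIF15, KIF18A, KIF4A, KIF14, KIF20A and KIF23, against 22.1% of 27305 promoters. CCAAT occurred in 8 of 10, that is in all but KIF15 and KIF2C, against 33.0% of promoters. Both occurred in 6 of 10, against 7.85%. The E2F letters searched, TTTCCCGC, TTTGGCGC, TTTGGCGG and TTTCGCGC, occurred in KIF15 alone, against 2.91% of promoters, where they adjoin the TTTGAA letters without overlap. In KIF4A and KIF11 the CCAAT letters begin 58 and 53 bases and the TTTGAA letters 34 and 28 bases before the start. In KIF14 the order is the reverse, with TTTAAA far upstream at 198 bases and CCAAT at 22 bases before the start. Of the 3 kinesins called under JQ1, KIF4A and KIF20A held both motif types, and KIF22 held CCAAT and neither TTTGAA nor TTTAAA in this window. Of those not called, KIF11, KIF14, KIF18A and KIF23 held both types. KIF15 held TTTGAA without CCAAT, KIF20B held CCAAT without TTTGAA or TTTAAA, and KIF2C held neither type. Whether the motifs bear on the calls was not tested. A match is a description of letters and not a measured binding site.

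Palbociclib exposure was compared between 2 libraries and the other 6. No kinesin was called by edgeR, where 0.28% of all tested genes were. An unadjusted edgeR p under 0.05 was found for 2 of 10 kinesins and for 2056 of 9288 genes. DESeq2 called 1 kinesin, KIF22, and 515 genes. The members' median log2 fold change was -0.20, with 9 of 10 below 0, against 0.01 and 48.3% over all genes. KIF22 again had the largest value, -0.65 ± 0.13 (SE, edgeR adjusted p = 0.0716; DESeq2 adjusted p = 0.00858). By edgeR it was called without paclitaxel (adjusted p = 0.0381), without JQ1+paclitaxel (0.0377) and without JQ1+palbociclib (0.0426), and with the experiment as a term its adjusted p was 0.898 at a log2 fold change of -0.60. KIF20A followed at -0.42 ± 0.15 (edgeR adjusted p = 0.164), then KIF2C at -0.30 ± 0.16, KIF4A at -0.28 ± 0.16 and KIF11 at -0.23 ± 0.13 (edgeR adjusted p of 0.297, 0.341 and 0.337). The other 5 lay between -0.16 for KIF15 and 0.11 for KIF18A. The palbociclib library without JQ1 stood well below DMSO, at a ratio of 0.505 for KIF22 (95% counting interval 0.434 to 0.587) and 0.680 for the summed kinesins (0.644 to 0.719), but these libraries came from different experiments, which cannot be told apart from the drug.

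Paclitaxel exposure was likewise compared between 2 libraries and 6. No gene of 9288 passed edgeR's test, 0% of all genes, and so no kinesin did; 395 genes and 3 kinesins had an unadjusted p under 0.05, and DESeq2 called 9 genes and no kinesin. The members' median log2 fold change was 0.17, with 1 of 10 below 0, against 0.01 and 47.5% over all genes. The values behind it were 0.36 ± 0.15 for KIF2C, 0.36 ± 0.15 for KIF20A and 0.31 ± 0.12 for KIF20B (SE, edgeR adjusted p = 0.885 for each), and the 1 below 0 was KIF14 at -0.09 ± 0.15. The summed level was 1.13 times that of DMSO in paclitaxel (95% counting interval 1.07 to 1.18) and 1.04 times that of JQ1-A in JQ1+paclitaxel (0.986 to 1.1). DMSO itself stood at 1.13 times pre-treatment (1.07 to 1.19), with no drug in either, so the paclitaxel ratio was no larger than that between these libraries. Whether the response to a partner drug differed with JQ1 was tested with interaction terms, which leave 2 residual degrees of freedom. No kinesin was called by edgeR for JQ1 with palbociclib (0.0108% of all genes called) or for JQ1 with paclitaxel (0.388% of all genes). For the interaction with palbociclib, no kinesin and 1580 of 9288 genes had an unadjusted edgeR p under 0.05. For that with paclitaxel, 1 kinesin and 1577 genes did. KIF23 had the interaction value largest in size in both, 0.46 ± 0.22 with palbociclib (SE, edgeR adjusted p = 0.32) and -0.51 ± 0.22 with paclitaxel (SE, edgeR adjusted p = 0.287).

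Related genes were counted from lists set by function, to be read beside the 19.7% of all tested genes called lower and the 17.8% called higher under JQ1. No difference between a list and the other genes was tested. Of 4 other mitotic kinesins tested, CENPE, a kinetochore motor, was lower under JQ1 at -0.34 ± 0.12 (SE, edgeR adjusted p = 0.0498), and KIF18B, KIFC1 and KIF2A were not called. Kinesins and light chains of vesicle and organelle transport had 3 of 12 higher and none lower, with 5 of 12 below 0: KIF1B at 0.53 ± 0.11, KIF3B at 0.47 ± 0.10 and KIF5C, a neuronal transport motor, at 2.97 ± 0.27. KIF5C was under 5 CPM in every library without JQ1 and so passed the filter only through libraries with JQ1, which favours a call of higher. The call of KIF5C is therefore not read as a result. Without it, KIF1B and KIF3B remain, a share near that of all genes called higher. Spindle and midzone partners of the motors had 6 of 18 lower and 1 higher, led by the kinases PLK1 at -0.79 ± 0.13 and AURKA at -0.74 ± 0.17, while the pole protein NUMA1 rose by 0.61 ± 0.12. Regulators of G2/M transcription had 3 of 13 lower, a share near that of all genes, and 1 higher, MYBL2 at -0.64 ± 0.13 and the E2F partner TFDP1 at -0.50 ± 0.09 among the lower and the NF-Y subunit NFYA at 0.73 ± 0.17 as the 1 higher. FOXM1 was not called, at -0.09 ± 0.11.

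The 12 mitotic markers, none of them a kinesin and 4 of them also in the partner list, had 7 of 12 lower and a median of -0.52, led by CCNB1 at -0.91 ± 0.13 and then PLK1 and AURKA with the values above. TOP2A and CENPF of the same list stood at 0.03 ± 0.10 and -0.01 ± 0.11 and were not called. The S-phase markers had 5 of 11 lower and a median of -0.38, led by the replication gene CDC45 at -0.96 ± 0.14, with MCM5 and GINS2 each at -0.63 ± 0.13. All these calls were made by edgeR over all 9288 genes. Under palbociclib the only call in any list was CDC20, an activator of the anaphase-promoting complex, at -0.90 ± 0.11 (SE, edgeR adjusted p = 0.0371), and under paclitaxel there was none.

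Cells were then counted after thinning each to 10000 UMIs, which kept 5487 of the 5575 cells that passed the study's filter. A UMI of any kinesin was found in 73.9% of cells before treatment, 73.3% in DMSO, 87.0% in paclitaxel, 54.1% in palbociclib, 54.8% in JQ1-A, 56.8% in JQ1-B, 53.6% in JQ1+paclitaxel and 57.1% in JQ1+palbociclib. The mean over libraries was 63.8%, and 78.0% without thinning. Paclitaxel was the highest library, pre-treatment and DMSO were alike, and the other 5 lay within 4 points of each other. At least 5 of the 10 kinesins were found together in 3.19 to 7.19% of cells of a library. When all deposited cells with at least 10000 UMIs were thinned anew, this range was 2.58 to 6.06%, and JQ1-A moved from 4.31% to 2.58% and DMSO from 7.19% to 5.12%, so no order of libraries is read from this share.

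Single kinesins were sparse at this depth. KIF20B was found in the most cells, from 21.3% in palbociclib to 38.9% in paclitaxel, and KIF15 in 3.60 to 7.65% of cells of a library. KIF22 was found in 25.7% of cells before treatment, 24.9% in DMSO, 27.5% in paclitaxel, 14.2% in palbociclib, 15.8% in JQ1-A, 15.9% in JQ1-B, 14.9% in JQ1+paclitaxel and 10.7% in JQ1+palbociclib. As in its CPM, pre-treatment, DMSO and paclitaxel were the high libraries and JQ1+palbociclib the lowest, but the other ranks differed. The exact binomial 95% interval was 21.0 to 29.2% in DMSO. KIF4A was found in 20.2% of DMSO cells and 26.2% of paclitaxel cells, and in 10.4 to 12.1% of cells of the 4 libraries with JQ1 and 11% of palbociclib cells. KIF18A was found in 3.96 to 7.65% of cells of a library. For both KIF15 and KIF18A the highest library changed when all deposited cells were thinned anew, with KIF15 in paclitaxel moving from 7.65% to 4.76% and KIF18A from 7.65% to 5.84%.

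As a background, cells with no UMI of any mitotic marker were examined. Of the 734 such cells only 41 came from pre-treatment, DMSO and paclitaxel, so the comparison was made in the other 5 libraries, each with at least 60 of them, by pooling 693 cells with none and 690 cells with at least 13 marker UMIs. Over all libraries the median was 20336.5 UMIs before thinning in cells with none and 24705 in cells with at least 13. Any kinesin was found in 23.8% of the cells with none (exact binomial 95% interval 20.7 to 27.2%) and in 95.1% of the cells with many (93.2 to 96.6%). These intervals cover counting error over the pooled cells and leave out the spread between libraries. The background was uneven among kinesins: 8.08% for KIF20B, 6.78% for KIF23 and 3.75% for KIF22, but 0.722% for KIF20A, 0.577% for KIF2C and 0.433% for KIF4A. In the cells with many marker UMIs the shares were 52.8% for KIF20B, 43.3% for KIF23, 38.0% for KIF11, 32.2% for KIF22 and for KIF2C, 30.1% for KIF4A, 30% for KIF14, 24.5% for KIF20A, 15.7% for KIF18A and 10.9% for KIF15. In these 5 libraries every kinesin was found several times more often in cells rich in other mitotic RNAs than in cells without them.

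Co-expression was described within each library as Pearson's r of log2(1 + UMIs) over thinned cells, for 45 pairs of kinesins, with no test because cells of a library are not replicates and share depth and sparse counts. The median over pairs was 0.03 in paclitaxel, 0.10 in DMSO and before treatment, 0.16 in palbociclib, 0.12 in JQ1-A and JQ1-B, 0.19 in JQ1+paclitaxel and 0.11 in JQ1+palbociclib. Paclitaxel, the library with kinesin UMIs in the most cells, had the lowest values. The pair with the highest median over libraries was KIF2C with KIF20B at 0.21 (range 0.12 to 0.30), followed by KIF2C with KIF23 at 0.20, KIF20B with KIF23 at 0.19 and KIF11 with KIF23 at 0.19. KIF15 had the lowest values, a mean of 0.06 with the other kinesins and 0.02 with KIF14. Thinning to 5000 UMIs lowered the median in every library, to 0.02 in paclitaxel and 0.08 in JQ1+paclitaxel, so single pairs at this depth are weak descriptions.

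**Figure D3:**
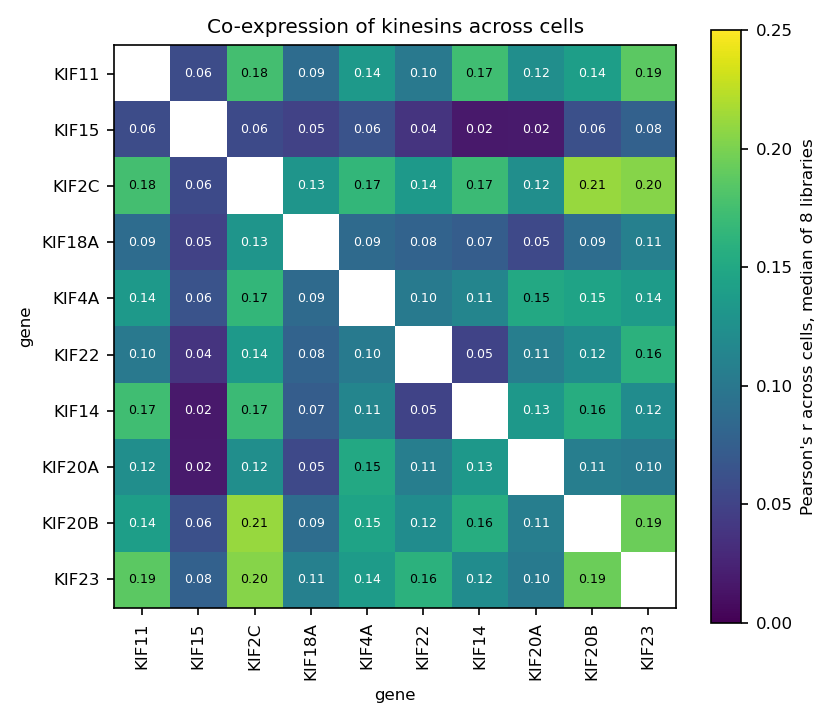
Pearson's r across cells for each pair of kinesins (rows and columns are genes), printed and coloured as the median of 8 libraries, from log2(1 + UMIs) in cells thinned to 10000 UMIs. KIF2C, KIF20B, KIF23 and KIF11 hold the highest values, up to 0.21, and the KIF15 row the lowest, down to 0.02.

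Summing the 10 kinesins per cell gave a less sparse measure. Of 6629 genes averaging at least 0.1 UMI per cell, the 5 that followed it most closely, by the median r over 8 libraries, were CKS2 (0.58, range 0.39 to 0.63), HMGB2 (0.57), TOP2A (0.53), UBE2C (0.51) and CENPF (0.50), against a median of 0.02 over all compared genes. CKS2 binds cyclin-dependent kinases, HMGB2 is a chromatin protein, TOP2A untangles DNA, UBE2C adds ubiquitin for the anaphase-promoting complex, and CENPF sits at the kinetochore. TOP2A, UBE2C and CENPF belong to the marker list used here. With the summed markers, single kinesins reached a median r from 0.12 for KIF15 to 0.39 for KIF20B, and with the S-phase markers from 0.05 for KIF20A to 0.16 for KIF20B, and each of the 10 had a higher median r with the mitotic than with the S-phase list.

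The level of a library was divided into the share of cells with many mitotic marker UMIs, at least 13, the 75th percentile of all thinned cells, and the kinesin level within them. Such cells made up 33.6% before treatment, 36.9% in DMSO, 54.0% in paclitaxel, 18.6% in palbociclib, 20.8% in JQ1-A, 18.4% in JQ1-B, 21.8% in JQ1+paclitaxel and 15% in JQ1+palbociclib. Within them the summed kinesins stood at 352 CPM before treatment, 370 in DMSO, 314 in paclitaxel, 428 in palbociclib, 409 in JQ1-A, 405 in JQ1-B, 408 in JQ1+paclitaxel and 401 in JQ1+palbociclib. The class is set by markers with which the kinesins correlate across cells, so the share and the level are given side by side and not weighed against each other. The library with the largest share, paclitaxel, had the lowest level. The class is a range of a score and not a cell type, and 25 to 94 cells of a library lay within 10% of the dividing value. Between JQ1+palbociclib and DMSO, which came from different experiments, experiment and drugs cannot be told apart. JQ1+palbociclib stood at 1.08 times the DMSO level in this class (95% counting interval 0.968 to 1.21). The ratio was 0.952 with the 90th percentile, and 0.779 (0.698 to 0.871) when the 75th percentile was taken within each library. With the latter choice the class held 25.2 to 27.4% of cells in every library, and the summed kinesins in it stood at 380 CPM before treatment, 430 in DMSO, 359 in paclitaxel, 372 in palbociclib, 378 in JQ1-A, 348 in JQ1-B, 377 in JQ1+paclitaxel and 335 in JQ1+palbociclib. How a difference between libraries divides into cells and level per cell therefore depended on the dividing value.

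Among the remaining cells, with fewer than 13 marker UMIs, the summed kinesins stood at 120 CPM before treatment, 122 in DMSO, 171 in paclitaxel, 74.6 in palbociclib, 84.9 in JQ1-A, 96.0 in JQ1-B, 81.2 in JQ1+paclitaxel and 93.9 in JQ1+palbociclib. The same 3 libraries were the high ones as in the sums. KIF22 in these cells stood at 20.6 to 24.3 CPM before treatment and in DMSO and paclitaxel, against 7.87 to 12.9 in the other 5.

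Single kinesins behaved unequally inside the class with many marker UMIs. KIF11 stood at 33.7 CPM before treatment, 28.7 in DMSO and 30.1 in paclitaxel, and at 43.9 in palbociclib, 48.1 in JQ1-A, 57.1 in JQ1-B, 53.8 in JQ1+paclitaxel and 50.0 in JQ1+palbociclib. The latter 5 were all above the former 3, as they were for the summed kinesins at this dividing value. For the summed kinesins that order was lost with the value set within each library, where DMSO was the highest. KIF11 is given here at the fixed value only. KIF22 stood at 53.1 before treatment, 51.2 in DMSO and 40.8 in paclitaxel, and at 41.5 in palbociclib, 48.1 in JQ1-A, 46.1 in JQ1-B, 40.2 in JQ1+paclitaxel and 32.9 in JQ1+palbociclib, with overlap between libraries with and without JQ1. KIF4A ranged from 34.7 to 45.1 without JQ1 and from 30.5 to 41.7 with it, and KIF20A from 24.4 to 34.1 and from 23.3 to 39.4. The values rest on few UMIs, 48 for KIF22 in JQ1+palbociclib (exact Poisson 95% interval 24.2 to 43.6 CPM) and 84 in DMSO (40.9 to 63.4).

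**Figure D4:**
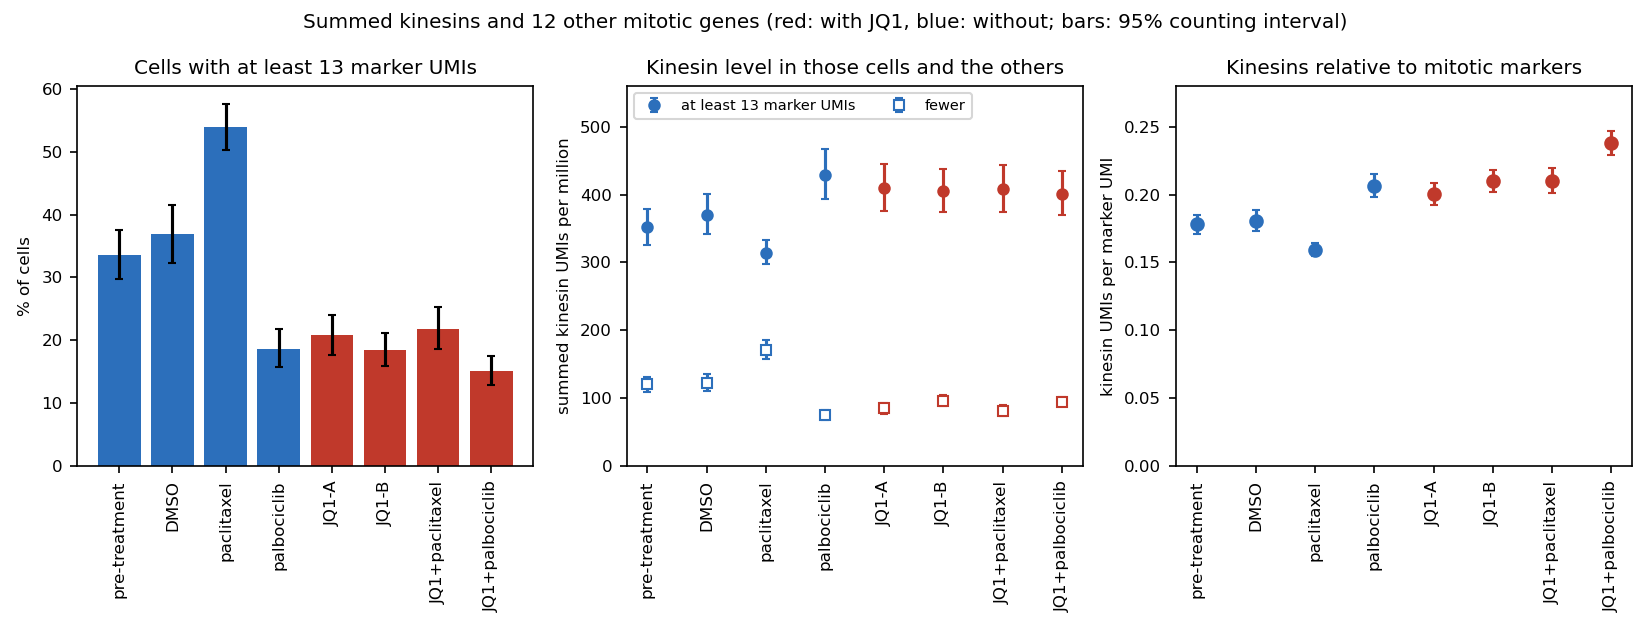
Left, percent of thinned cells with at least 13 UMIs of 12 mitotic markers in each library; middle, summed kinesin CPM in those cells (filled circles) and in the others (open squares); right, summed kinesin UMIs per mitotic marker UMI in whole libraries. Red marks libraries with JQ1, blue those without, and bars are 95% counting intervals; the share runs from 15 to 54.0% and the level in marker-rich cells runs from 314 to 428, and the ratio on the right is highest in JQ1+palbociclib at 0.238.

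Relative to the mitotic markers, the kinesins were higher in the libraries where both were low. Kinesin UMIs per marker UMI stood at 0.178 before treatment, 0.180 in DMSO, 0.159 in paclitaxel, 0.206 in palbociclib, 0.200 in JQ1-A, 0.210 in JQ1-B, 0.210 in JQ1+paclitaxel and 0.238 in JQ1+palbociclib. All 4 libraries with JQ1 lay above pre-treatment, DMSO and paclitaxel, and palbociclib lay among them. JQ1+palbociclib stood at 1.32 times DMSO (95% counting interval 1.25 to 1.39), at 1.30 times in cells passing the study's filter, and at 1.52 times when TOP2A and CENPF were left out of the markers. These libraries came from different experiments, which cannot be told apart from the drugs. TOP2A and CENPF changed least under JQ1 of the 12 markers (log2 fold change 0.03 and -0.01). A higher ratio without them follows from that choice and is not a separate check. Within its own experiment JQ1+palbociclib stood at 0.238, against 0.206 in palbociclib and 0.210 in JQ1-B.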

How the data were processed

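Single-cell RNA was measured in 8 libraries of SUM159 cells. The deposited values were UMI counts for each gene in each cell. The authors used 10x Genomics 3′ chemistry, aligned reads to hg19, counted in Cell Ranger and kept genes seen in at least 3 cells. A second deposited file named the library of each cell. The study's cell filter (1 to 15% mitochondrial UMIs, at least 2000 genes) had not been applied, and 97.2% of 5738 cells passed it. Near-equal mean UMIs per cell across libraries were not traced to a step in the sources used here, so RNA content per cell was not compared. Doublets were not called, as the cells are 1 line.

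Counts of all cells were summed per library and scaled to CPM. Genes with at least 5 CPM in at least 2 libraries were tested with edgeR 4.0.16 (R 4.3.3, TMM, quasi-likelihood, 4 residual degrees of freedom; called at Benjamini-Hochberg adjusted p under 0.05); standard errors, approximate, are the fold change over the square root of F. The tests were checked on simulated counts. DESeq2 1.42.0, other scalings and filters, an experiment term, 3 pairs of libraries (added after seeing the data) and leaving out each library were alternatives. Within cells, values rest on 10000 UMIs drawn from each cell that passed the filter; deep cells above the 95th percentile were left out as a check. Promoters were from RefSeq (GRCh38.p14 table), gene spans from GENCODE for GRCh37.

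The 10 kinesins and the gene lists were chosen with earlier results of these data known. Named genes were all 10 kinesins, the 3 largest called changes of each list, the 5 genes most like the summed kinesins across cells, and, chosen after their values were seen, FOXM1, TOP2A and CENPF under JQ1 and the list members named as not called. KIF2B and UHRF1 of the lists were not analysed here.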

Additional observations from a re-analysis of the deposited data

How the results depend on the processing

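Members called under JQ1 numbered 3 with RLE factors, without the CPM filter, in cells passing the study's filter and at equal total UMIs, 4 with library totals in place of TMM (chosen after seeing the data), 2 with DESeq2 and within the JQ1+paclitaxel experiment, and 0 with the experiment as a term, where all genes called dropped from 3488 to 463, and in the 3 pairs of the same experiment and partner drug, where 361 genes were called (chosen after seeing the data). Leaving out each library gave 1 to 3 kinesins (KIF22 alone without DMSO or JQ1-B) and 1760 to 4190 genes. For palbociclib, DESeq2 called 1 kinesin and 515 genes, the experiment term 0 genes, and leaving out each library 0 to 1 kinesins and 0 to 938 genes, with 938 without JQ1+palbociclib and 0 without pre-treatment, DMSO or JQ1-B. For paclitaxel, DESeq2 called 9 genes, the fit within its experiment 2, and leaving out each library 0 to 4, with no kinesin under any alternative run.

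Signs changed for kinesins near 0. Under JQ1, KIF11 was -0.12 and KIF18A -0.038 with library totals, KIF11 -0.049, KIF15 0.0078 and KIF14 0.11 within the JQ1+paclitaxel experiment, and KIF14 0.0104 with the experiment term and 0.0082 in the 3 pairs. Leaving out single libraries gave KIF11 -0.0044 to 0.13, KIF14 -0.11 to 0.0395 and KIF20B -0.070 to 0.0253 under JQ1, KIF23 -0.44 to 0.18 under palbociclib, and KIF14 -0.19 to 0.0197 and KIF23 -0.21 to 0.45 under paclitaxel. Under palbociclib, KIF18A was -0.0855 at equal total UMIs and KIF14 0.14 with the experiment term. The cause of these sign changes was not tested. Fits that leave out libraries or add the experiment term have fewer libraries or fewer residual degrees of freedom by construction. The share of cells with a kinesin moved from 63.8% to 78.0% without thinning, the ratio of JQ1+palbociclib to DMSO in kinesins per marker from 1.32 to 1.52 without TOP2A and CENPF, and that in marker-rich cells from 1.08 to 0.952 at the 90th percentile and 0.779 with the value set within each library. The rise to 1.52 follows from leaving out the markers that changed least under JQ1. The labels give no replicate number that groups share; pairs of libraries were formed by experiment and partner drug.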

Other observations

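The makeup of the kinesin pool also differed between libraries, as the percent of all kinesin UMIs that each gene gave. KIF22 gave 15.7% before treatment, 16.0% in DMSO and 13.6% in paclitaxel, but 11.9% in palbociclib, 10.7% in JQ1-A, 11.8% in JQ1-B, 12.2% in JQ1+paclitaxel and 8.44% in JQ1+palbociclib. KIF20B gave 18.7% before treatment, 19.7% in DMSO and 20.0% in paclitaxel against 20.8 to 23.9% in the other 5 libraries. KIF18A gave 2.98 to 3.38% in the former 3 and 4.19 to 5.0% in the latter 5. KIF20A gave 6.79% in DMSO and 4.97% in JQ1+palbociclib, the lowest of the 8 libraries. KIF23 gave 18.0% in JQ1+palbociclib, the highest, and 12.5% in JQ1+paclitaxel, the lowest. Shares of a sum are not independent of one another, and no test was made.

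Among transport motors, KIF5C stood at 1.06 to 2.3 CPM in the 4 libraries without JQ1, and at 13 CPM in JQ1-A, 7.19 in JQ1-B, 9.34 in JQ1+paclitaxel and 21.0 in JQ1+palbociclib. KIF5C passed the filter on low values only through the libraries with JQ1, and its values are given as a description. Among the libraries with JQ1, KIF5C was highest in JQ1+palbociclib.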
